A study of Mus musculus with 20 samples.

Results

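H3K27ac, an acetylation of histone H3 found at active promoters and enhancers, was compared between the nose of the mouse embryo at e13.5 and a nose-named library at e15.5. Peaks of both lists that overlapped or touched were merged, which gave 29080 regions. They were part of the 42346 regions that all 10 H3K27ac lists of the series gave. A region counted as present at a stage when a peak of that stage overlapped it by at least 1 bp. Regions within 1 kb of an annotated transcription start site were called proximal (13386) and the others distal (15694). The e13.5 list came from a sample labelled nose. The e15.5 list came from a sample whose label says mandibular process, while the peaks in it are named for the nose, and the region was taken from that name.

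The series mapped H3K27ac by ChIP-seq in wild-type face tissue at 3 stages, each sample a mixture of cells and each region 1 library per stage. At e11.5 the samples were the mandibular and maxillary processes and the medial and lateral nasal plates, and at e13.5 and e15.5 both jaw processes and the nose. The question that this pair addresses is which regulatory regions of the nose carry the mark at an earlier and a later stage while the cartilage, glands and skin of the snout form. Both samples were untreated. The study's methods say of its animals in general that both sexes were used, and the strain and the number of embryos behind each of these samples were not given in the sources used here.

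Active enhancers and promoters carry H3K27ac because acetyltransferases such as p300 and CBP are recruited by the transcription factors bound there. Broad domains of the mark often cover genes that define a cell type, while enhancers far from start sites change more between stages than promoters do. The nose arises from the medial and lateral nasal prominences, whose mesenchyme comes from Hox-negative cranial neural crest and expresses Alx, Pax3, Msx and Tfap2 genes. Its lining comes from the olfactory placode and surface ectoderm. During this part of gestation the nasal capsule turns to cartilage, membranous bone begins to form, glands bud from the epithelium and the skin of the snout stratifies.

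The named region was checked against marker genes, because all 3 samples of e15.5 had labels that differed from their peak names. A gene's promoter peak was taken as the widest peak within 1 kb of any of its start sites. In the nose-named list, 9 of 9 frontonasal patterning genes had a promoter peak and 15 distal peaks lay nearest to them. The list labelled maxillary process and named for the mandibular process had 7 and 1, and the list labelled nose and named for the maxillary process had 5 and 5. The lists differ in length, and as a share of each list's distal peaks these were 0.172% for the nose-named, 0.0148% for the mandibular-named and 0.179% for the maxillary-named list, so the distal peaks did not set the nose-named list apart from the maxillary-named one. Of 9 mandibular patterning genes, 1 had a promoter peak in the nose-named list, against 5 in the list named for the mandibular process. Hand2, which patterns the lower jaw, had a promoter peak of 29625 bp in the list named for the mandibular process and no peak at its promoter in either the e13.5 nose or the nose-named e15.5 list. Pitx1, another gene of the lower jaw, had 13703 bp in that list and likewise none in the other 2. Alx1, a regulator of the frontonasal mesenchyme, had 27199 bp at e13.5 and 27009 bp in the nose-named list, against 6181 bp and 4949 bp in the other e15.5 lists. Among 8 maxillary patterning genes, 5 had a promoter peak in the mandibular-named, 3 in the maxillary-named and 2 in the nose-named list. Among 16 olfactory genes, 7 had a promoter peak in the nose-named, 5 in the mandibular-named and 3 in the maxillary-named list. Their distal shares were 0.149%, 0.148% and 0.215% in the same order. The frontonasal and mandibular promoter peaks go against the label mandibular process, while the maxillary genes did not follow the peak names. The library is called the nose-named e15.5 list below.

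The lists differed in length and strength. The e13.5 list held 25941 peaks covering 49.4 Mb and the e15.5 list 19817 peaks covering 41.0 Mb. The highest −log10 q, the deposited measure of a peak's significance, was 194 at e13.5 and 56.7 at e15.5. The median peak was 1643 bp wide at e13.5 and 1802 bp at e15.5. The number of reads behind the lists is unknown, and a region below the threshold of a list can carry the mark. With 1 library per stage, no difference between the stages has a replicate check, and no p-value is given. Intervals are exact Clopper-Pearson 95% intervals and cover counting error only.

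The sequences below are shown because they come from the distal regions with the highest −log10 q among those called at a single stage, 3 for each stage, named by the nearest protein-coding gene. Each is the 200-bp window of the region with the most matches to 22 consensus sequences searched on both strands. The letters are those of the GRCm38 plus strand from RefSeq, written 5′ to 3′, and capitals mark the matches.
Rpl29, e13.5 only, chr9:106420599-106420798: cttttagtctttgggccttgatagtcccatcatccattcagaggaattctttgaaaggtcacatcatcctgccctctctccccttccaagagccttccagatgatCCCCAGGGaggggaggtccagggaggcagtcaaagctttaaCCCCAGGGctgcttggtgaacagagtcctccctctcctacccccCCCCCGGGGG
Kbtbd8, e13.5 only, chr6:95202184-95202383: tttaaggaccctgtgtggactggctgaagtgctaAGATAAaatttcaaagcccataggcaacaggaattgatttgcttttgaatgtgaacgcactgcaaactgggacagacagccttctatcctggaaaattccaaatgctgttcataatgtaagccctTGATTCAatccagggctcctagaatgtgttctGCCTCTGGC
Bcar3, e13.5 only, chr3:122461003-122461202: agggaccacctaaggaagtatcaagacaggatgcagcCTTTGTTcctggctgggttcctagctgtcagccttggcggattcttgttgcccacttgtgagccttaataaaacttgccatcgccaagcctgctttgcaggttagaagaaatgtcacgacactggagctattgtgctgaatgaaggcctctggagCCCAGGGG
Ets2, e15.5 only, chr16:95658595-95658794: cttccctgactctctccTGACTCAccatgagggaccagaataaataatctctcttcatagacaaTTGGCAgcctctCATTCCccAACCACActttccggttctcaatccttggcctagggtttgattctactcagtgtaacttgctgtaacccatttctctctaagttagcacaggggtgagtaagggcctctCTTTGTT
Vav1, e15.5 only, chr17:57275357-57275556: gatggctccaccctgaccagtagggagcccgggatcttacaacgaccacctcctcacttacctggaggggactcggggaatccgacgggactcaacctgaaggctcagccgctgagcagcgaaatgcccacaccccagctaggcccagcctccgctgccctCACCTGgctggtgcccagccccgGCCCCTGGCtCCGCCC
Cavin1, e15.5 only, chr11:100964219-100964418: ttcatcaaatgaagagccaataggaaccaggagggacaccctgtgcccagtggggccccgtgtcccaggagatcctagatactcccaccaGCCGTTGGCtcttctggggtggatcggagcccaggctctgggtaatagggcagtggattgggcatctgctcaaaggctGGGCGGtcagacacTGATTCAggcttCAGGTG

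All 3 of the e13.5 regions also had a peak in both nasal plates of e11.5. The region near Rpl29, a ribosomal protein gene, lay 7516 bp from the start site between genes and had a −log10 q of 13.3. Its window held 5 matches to the EBF letters CCCNNGGG, of which those in the run of C and G at the end overlap. The region near Kbtbd8 lay 83795 bp away, had a −log10 q of 11.4, and its window held a match to the GATA letters AGATAA, another to the TFAP2 letters GCCNNNGGC and another to the site of AP-1 (TGANTCA). The region in an intron of Bcar3, which encodes an adaptor protein of cell adhesion signalling, had 11.3 and matches to SOX (AACAAAG) and EBF letters.

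The e15.5 regions had lower −log10 q values. These are set within each list, and the median over all peaks was 3.74 at e13.5 and 2.93 at e15.5. The one 41573 bp from Ets2, a transcription factor of the ETS family, had a −log10 q of 7.41, with matches to AP-1, NFI (TTGGCA), TEAD (GGAATG), RUNX (TGTGGTT) and SOX letters in 1 window. It also had a peak in both other e15.5 lists, in the lateral nasal plate of e11.5 and in the mandibular process of e13.5. The one 3537 bp from Vav1, a signalling gene of blood cells, had 6.53 and was called in none of the other 8 lists. The one in an intron of Cavin1, which encodes a coat protein of caveolae, was 4020 bp wide, had 5.96, and was also called in the e15.5 list labelled maxillary process. Its window held matches to TFAP2, SP/KLF (GGGCGG), AP-1 and SNAI/ZEB (CAGGTG) letters.

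To see how much of the marked genome the stages shared, every region was placed in 1 of 3 classes. Of the proximal regions, 10076 (75.3%, interval 74.5 to 76.0) were present at both stages, 2570 (19.2%) were called at e13.5 alone and 740 (5.53%) at e15.5 alone. Of the distal regions, 5546 (35.3%, 34.6 to 36.1) were present at both stages, 7295 (46.5%) at e13.5 alone and 2853 (18.2%) at e15.5 alone. The e15.5 distal regions were shared in 66.0% of cases and the e13.5 distal regions in 43.2%. At promoters the shared portions were 93.2% and 79.7%. In bulk tissue, fewer cells of a type and less of the mark per cell cannot be told apart.

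The order of the single-stage distal counts changed with the number of peaks taken. When the 19817 peaks with the highest q-values were taken from each list, 3503 distal regions were present only at e13.5 and 3806 only at e15.5. The proximal counts kept their order, with 1666 at e13.5 only and 1073 at e15.5 only. In both settings distal regions were shared less often than proximal ones, with 4626 distal and 9734 proximal regions at both stages in the equal lists. When the e15.5 list labelled nose, with 7728 peaks, was used in place of the nose-named one, 12112 distal regions were called at e13.5 alone, 1607 at e15.5 alone and 1053 at both.

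**Figure D1:**
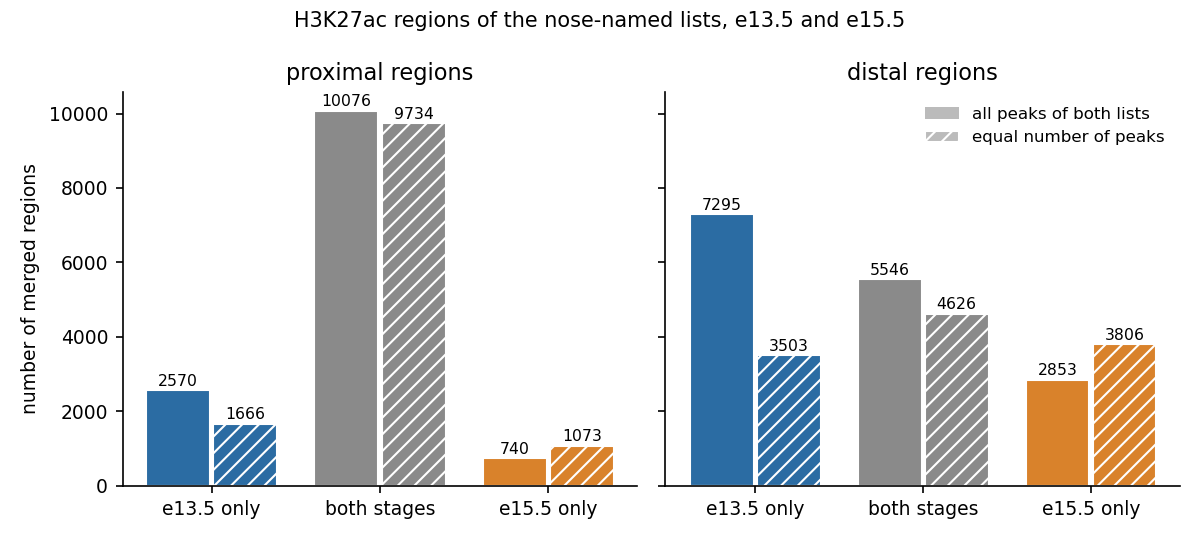
Number of merged H3K27ac regions called at e13.5 alone, at both stages or at e15.5 alone, for proximal (left) and distal (right) regions. Plain bars use all peaks and hatched bars the 19817 peaks of each list with the highest q-values; e13.5-only distal regions number 7295 in the former and 3503 in the latter, and e15.5-only ones 2853 and 3806.

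Regions called at a single stage were weak and narrow compared with those at both. The median −log10 q was 1.91 for e13.5-only and 1.64 for e15.5-only distal regions, against 3.87 at e13.5 and 2.43 at e15.5 for shared ones. A −log10 q of at least 5 was reached by 271 of the 7295 e13.5-only regions and 5 of the 2853 e15.5-only regions. As q-values are set within each list, these counts do not measure a difference in strength between the stages. The median width was 1165 bp for e13.5-only, 966 bp for e15.5-only and 2366 bp for shared distal regions. Among e13.5 distal peaks, the shared portion was 19.5% in the weakest of 5 equal bins by q-value and 87.9% in the strongest. Among e15.5 distal peaks it was 42.3% and 96.0%. The strongest bin of proximal peaks was shared completely at the printed precision, 100.0% at both stages.

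The classes lay in similar places. The midpoint was intronic in 52.4% of e13.5-only, 56.7% of e15.5-only and 52.0% of shared distal regions, and intergenic in 43.3%, 39.2% and 44.4%. The median distance to the nearest start site was 14307 bp for e13.5-only, 11702 bp for e15.5-only and 11902 bp for shared distal regions. Few single-stage distal regions lay beside a peak of the other stage. The nearest peak of the other list was a median of 22.3 kb away from e13.5-only regions and 14.0 kb from e15.5-only regions, and lay within 1 kb for 4.65% and 7.4% of them.

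The 8 other H3K27ac lists had no part in the choice of classes, and showed where single-stage regions were marked elsewhere in the face. Of the e13.5-only distal regions, 35.6% (34.5 to 36.7) had a peak in the medial nasal plate at e11.5 and 34.4% (33.3 to 35.5) in the lateral nasal plate. Of the e15.5-only distal regions, 5.43% (4.63 to 6.33) and 5.64% (4.82 to 6.55) did. Either nasal plate held 46.4% of the e13.5-only and 9.29% of the e15.5-only regions. Either of the 2 jaw processes of e11.5 held 12.2% and 1.86%, and either of those of e13.5 held 5.04% and 1.54%.

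In the other e15.5 lists the order was opposite. The list labelled maxillary process had a peak at 21.2% (19.7 to 22.7) of e15.5-only and 11.6% (10.9 to 12.4) of e13.5-only distal regions. The short list labelled nose had 2.84% (2.26 to 3.52) and 1.78% (1.49 to 2.11). Most e15.5-only distal regions, 2004 of 2853 (70.2%), were called in none of the other 8 lists, against 3315 of 7295 (45.4%) for e13.5-only and 915 of 5546 (16.5%) for shared ones. These shares also follow the length of each list, and the nasal plates had the longest other lists, with 20492 and 21689 peaks. With equal numbers of peaks, either nasal plate held 60.1% of e13.5-only and 15.3% of e15.5-only distal regions. Proximal regions showed the same order, with 52.5% of e13.5-only and 15% of e15.5-only regions in either nasal plate.

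**Figure D2:**
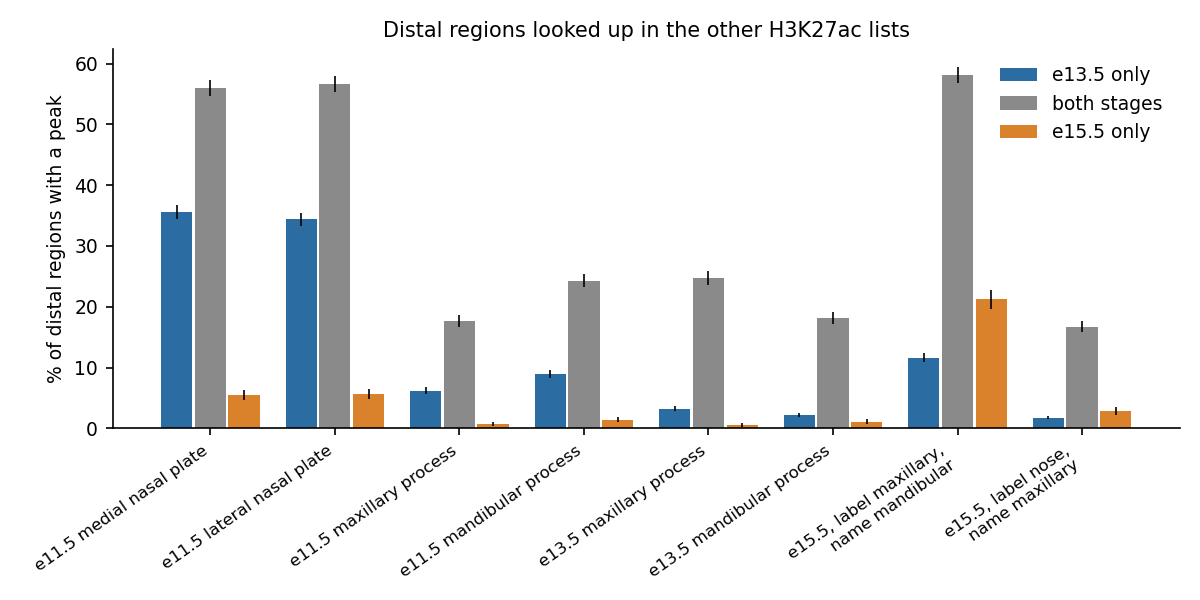
Share of distal regions of each class that overlap a peak in each of the 8 other H3K27ac lists, in percent, with exact 95% intervals. e13.5-only regions (blue) reach 35.6% and 34.4% in the e11.5 nasal plates, where e15.5-only regions (orange) reach 5.43% and 5.64%; in the e15.5 list labelled maxillary process the order is 11.6% and 21.2%.

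To describe the classes by gene, each distal region was given to the protein-coding gene whose start site lay nearest, up to 100 kb away. Regions can act on other genes than this one. This placed 5731 e13.5-only regions at 3364 genes and 2444 e15.5-only regions at 1897 genes, so that 29.9% of single-stage distal regions given to a gene were called at e15.5 only. Both kinds were found at 820 genes. At least 3 e13.5-only regions and no e15.5-only region were found at 328 genes, and the converse at 33.

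The 10 genes with the most e13.5-only distal regions, ties taken alphabetically, had between 9 and 13 of them. Tenm4, a teneurin of the cell surface, had 13 against 1 at e15.5 only, with 7 at both stages. Tead1, a transcription factor of the Hippo pathway, had 12 against 0. Prdm16, a zinc finger regulator needed for palate formation, had 12 against 2, and its promoter peak was 14325 bp at e13.5 and 10524 bp at e15.5. Itga9, an integrin subunit, also had 12 against 2, with a promoter peak of 1626 bp and 821 bp. Glis1, a zinc finger factor related to the Gli proteins, had 10 against 0, and its promoter peak of 6130 bp was called at e13.5 only.

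The others with the most e13.5-only regions were Cacna2d3, a calcium channel subunit (10 against 2), Pde7b, a cyclic AMP phosphodiesterase (10 against 0), Tcf7l2, a nuclear effector of Wnt signalling (10 against 2), Bach2, a transcriptional repressor (9 against 1), and Fgfr2, the FGF receptor altered in craniosynostosis syndromes (9 against 3). For 9 of these 10 genes the promoter was marked at both stages. Fgfr2 kept the width of its promoter peak, 9845 bp and 9881 bp, beside this difference in distal regions.

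The genes with the most e15.5-only distal regions had 5 or 6. Sec14l1, a lipid-binding protein gene, had 6 against 1 at e13.5 only. C1qtnf3, which encodes a secreted protein found in cartilage, had 5 against 0 and no distal region at e13.5, and its promoter peak of 3085 bp was also called at e15.5 only. Rai14 had 5 against 1 and Slc6a6, the taurine transporter, 5 against 2. The other 6 genes named by the same rule had 5 e15.5-only regions and at least 4 at e13.5 only. Ets2, Phactr2, 2010111I01Rik and Tcf7l1 had 4, Pdzd2 had 6 and Frmd4a had 8.

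The widest proximal region of a single stage lay at Lhx8 for e13.5 and at Sufu for e15.5. Among proximal e13.5-only regions, a domain of 6953 bp covered Lhx8, a homeobox gene of the palate and teeth, at chr3:154327220-154334172. Others were 6477 bp at Cep41, 6130 bp at Glis1, 5970 bp at Ebf3, a factor of olfactory neurons, and 5716 bp at Mycn, which drives growth of progenitor cells, at chr12:12937718-12943433 with a −log10 q of 6.58. Among proximal e15.5-only regions, 9066 bp lay at Sufu, a brake on Hedgehog signalling. Col1a2, 1 of the 2 genes of type I collagen, had 7995 bp at chr6:4529953-4537947 and 6259 bp at chr6:4518467-4524725, both inside the gene. Hsd17b2, a steroid dehydrogenase, had 5562 bp. A region of 6910 bp lay 2467 bp from the nearest start site of Prrx1, a regulator of limb and face mesenchyme. The promoter of Prrx1 itself had a peak at both stages, of 10952 bp and 11347 bp. The −log10 q of these 5 e15.5 regions was between 1.31 and 3.1. Looked up in the other 8 lists, the Lhx8 region had a peak in 8, Mycn in 6, Cep41 in 4, Ebf3 in 3 and Glis1 in 1. Those at Lhx8, Mycn and Cep41 were also called in the e15.5 list labelled maxillary process. The Sufu region had a peak in 3 other lists, both e11.5 nasal plates among them, and the Prrx1 region in 2. The regions at Col1a2 and Hsd17b2 had none.

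The widest distal e13.5-only region, 7212 bp, lay in Bcl11b, a zinc finger factor of ectoderm and teeth, 20764 bp from the start site. A region of 6338 bp in Disp1, which releases Hedgehog ligands from cells, had a −log10 q of 4.16. A region of 6330 bp lay 200662 bp from Sox11. The last 2 were 6216 bp wide, 20758 bp from Kcne3, and 5973 bp wide, 168072 bp from Cdh26. At e15.5 the widest distal regions were 5746 bp in Pdzrn3, 5140 bp in Bcl11a, 5093 bp in Nfix, 5052 bp near Heatr5a and 4840 bp in Fndc3b. Nfix encodes a nuclear factor I protein, and its region lay 5210 bp from the start site at chr8:84779579-84784671. Looked up in the other 8 lists, the Bcl11b and Disp1 regions each had a peak in 5, the e15.5 list labelled maxillary process among them. The regions named for Sox11 and Cdh26 each had a peak in 3 and that named for Kcne3 in 2, all of e11.5. At e15.5, the Pdzrn3 and Fndc3b regions each had a peak in 2, Bcl11a and Heatr5a each in 1 and Nfix in none.

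The distal regions were then counted over 28 gene lists and read against the 29.9% of e15.5-only among all single-stage regions. With all peaks, only the intervals of the frontonasal patterning and the respiratory and glandular epithelium lists did not include this share. Among so many lists, some intervals can miss it through counting error alone. The frontonasal patterning genes had 21 e13.5-only, 2 e15.5-only and 11 shared distal regions, and the e15.5-only share was 8.7% (1.07 to 28.0). All 9 members had more e13.5-only than e15.5-only regions. Msx1, a homeobox gene of the facial mesenchyme, had 4 against 0, Alx4 had 3 against 0, and Alx1 and Msx2 had 2 against 0. Only Pax3, of the neural crest, had any at e15.5 only, with 3 against 2. In the equal lists the counts were 8 and 2 (20%, 2.52 to 55.6), and the interval included the share over all genes there, 54.7%. Intervals that did not include it were those of respiratory and glandular (59.0 to 100), surface epithelium (65.1 to 95.6) and endothelial genes (4.66 to 50.8). That of Wnt genes ended at 54.7%.

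Genes of the olfactory lineage had 21 e13.5-only and 5 e15.5-only regions (19.2%, 6.55 to 39.4). Ebf1, a factor of olfactory neuron differentiation, had 5 against 1 and Emx2, a homeobox gene of the olfactory epithelium, 4 against 0. Gap43, a growth cone protein of immature neurons, had 3 against 0 and Ebf2 had 2 against 0. The equal lists gave 7 and 7. Of the 16 members, 9 had no promoter peak at either stage.

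Genes of respiratory and glandular epithelium lay on the other side, with 2 e13.5-only, 7 e15.5-only and 5 shared distal regions (77.8%, 40 to 97.2). Ehf, an ETS factor of glandular epithelium, had 0 against 2. Aqp5, the water channel of secretory cells, Cftr, a chloride channel, and Ascl3, a factor of gland duct cells, each had 0 against 1. The equal lists gave 0 and 7. No promoter peak was called at either stage for 8 of the 14 members, Aqp5 and Cftr among them. Ascl3 had a promoter peak of 573 bp at e13.5 only. Surface epithelium genes had 14 and 12 (46.2%, 26.6 to 66.6), and 4 and 22 in the equal lists. Esrp1, a splicing regulator of epithelia, had 0 against 4, whereas Cdh1, the epithelial cadherin, and Itga6, an integrin of the basal layer, had 3 against 0. Hair and tooth placode genes had 6 and 2 (25%), with 3 against 0 at Lef1.

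The intervals of the skeletal and connective tissue lists included the share of all genes. Cartilage genes had 9 e13.5-only and 7 e15.5-only regions (43.8%, 19.8 to 70.1), with 0 against 2 at Col9a1, a collagen of cartilage, and 3 against 1 at Sox5. Bone genes had 10 and 4 (28.6%, 8.39 to 58.1), with 3 against 1 at Runx2, the regulator of osteoblast fate. Fibroblast and matrix genes had 24 and 12 (33.3%, 18.6 to 51.0), with 0 against 3 at Col5a1 and 3 against 0 at Col12a1. Tendon genes had 1 and 3, with 11 shared. Facial mesenchyme regulators had 28 and 7 (20%, 8.44 to 36.9). Osr2, a palate regulator, had 4 against 1. Twist1 and Meis2 had 3 against 0.

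The intervals of the signalling lists also included 29.9%. Hedgehog genes had 25 e13.5-only and 5 e15.5-only distal regions (16.7%, 5.64 to 34.7). Among the coreceptors, Boc had 5 against 1, Cdon 4 against 0 and Gas1 5 against 2, and the transcription factor Gli2 had 5 against 1. BMP and TGF-beta genes had 30 and 6 (16.7%, 6.37 to 32.8), with 7 against 1 at the coreceptor Tgfbr3 and 4 against 0 at the receptor Tgfbr2. Wnt genes had 45 and 16 (26.2%, 15.8 to 39.1). Nkd2, an inhibitor of the pathway, had 5 against 0, and Axin2, its feedback target, 3 against 0. FGF genes had 15 and 4 (21.1%), of which Fgfr2 held 9 and 3. Retinoic acid genes had 19 and 7 (26.9%), with 7 against 2 at the receptor Rxra, and 4 against 0 at Crabp1, which binds retinoic acid in the cell. The equal lists gave 11 and 9 for Hedgehog, 17 and 13 for BMP and TGF-beta, 29 and 19 for Wnt, 7 and 7 for FGF and 12 and 9 for retinoic acid genes.

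The remaining lists held few regions or rested on few genes. Endothelial genes had 16 and 3 (15.8%, 3.38 to 39.6), most of them at the ETS factors Fli1 (6 against 1), Erg (5 against 1) and Ets1 (4 against 0). Skeletal muscle genes had 7 and 0, of which 4 lay at Mef2c, and 17 of 20 members had no promoter peak. Mandibular patterning genes had 8 and 0, with 3 against 0 at Gsc and at Barx1. Maxillary patterning genes had 0 and 2, both at Dlx2. Forebrain and eye genes had 4 and 1. Glia and melanocyte genes had 2 and 0, macrophage genes 1 and 1, erythroid and Hox genes none, and housekeeping genes 2 and 1. Nuclear factor I genes had 9 and 6, with 1 against 3 at Nfix and 6 against 1 at Nfib, and AP-1 genes 4 and 4. Early growth genes had 8 and 3, with 2 against 0 at Sall4.

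**Figure D3:**
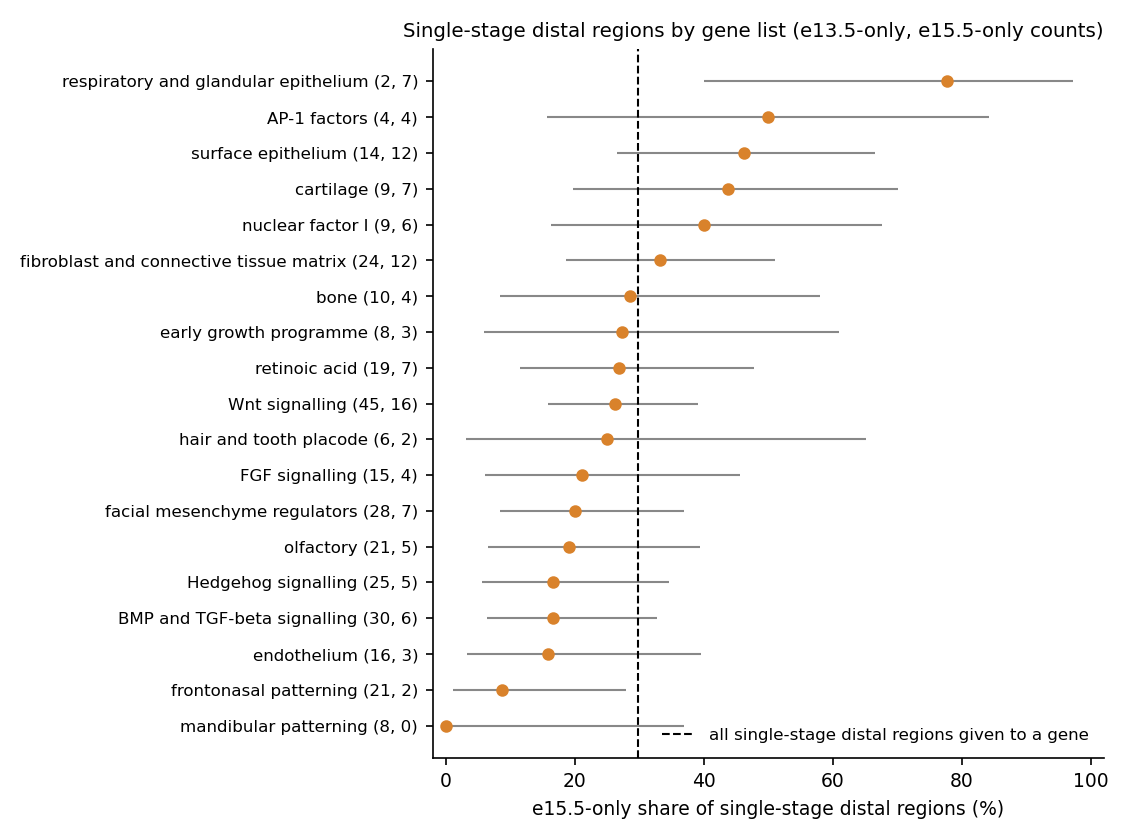
Share of e15.5-only regions among single-stage distal regions nearest to the members of each gene list, in percent, with exact 95% intervals, for lists with at least 8 such regions; numbers in parentheses are e13.5-only and e15.5-only regions. The dashed line is the 29.9% of all single-stage distal regions given to a gene; frontonasal patterning lies at 8.7% and respiratory and glandular epithelium at 77.8%.

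Width was compared for regions present at both stages, as the bases covered by peaks of each stage. The median shared proximal region covered 1957 bp at e13.5 and 1995 bp at e15.5. The median log2 ratio of e15.5 to e13.5 was 0.0056, with an interval from -0.0021 to 0.0128. The median shared distal region covered 1996 bp and 2016 bp, with a median log2 ratio of 0.0113 and an interval from -0.0036 to 0.0255. At e15.5, 50.7% of proximal and 51.0% of distal shared regions were wider. Both intervals of the median included 0.

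Large changes in width were few. Of the shared proximal regions, 217 (2.15%) were at least 2-fold wider at e15.5 and 319 (3.17%) at least 2-fold narrower. Of the shared distal regions, 280 (5.05%) were at least 2-fold wider and 355 (6.4%) at least 2-fold narrower. They made up a larger share of narrow regions than of wide ones. For distal regions with a geometric mean width under 1000 bp, 12.9% were at least 2-fold wider and 19.3% at least 2-fold narrower, against 1.4% and 1.87% between 4000 and 8000 bp. Widths of the stages had a Spearman correlation of 0.816 over 10076 proximal regions and 0.684 over 5546 distal regions, which share each library and are no replicates.

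The 5 largest gains in covered bases among shared proximal regions included 2 collagen genes. The region at Col1a1, the other gene of type I collagen, covered 7526 bp at e13.5 and 21573 bp at e15.5, at chr11:94931642-94953214. The region at Col2a1, the collagen of cartilage, covered 4699 bp in 2 peaks and 11206 bp in 1 peak. Another e13.5 promoter peak of Col2a1, of 6841 bp, lay outside this region and is not in its e13.5 width. Myh9, a nonmuscle myosin, had 4689 bp and 10216 bp, and Cd3eap 2361 bp and 7194 bp. Sox5, which acts with Sox9 in chondrocytes, had 10781 bp and 15601 bp. At all 5 the −log10 q was lower at e15.5 than at e13.5, as at Col1a1 with 18.9 and 9.23, though q-values are set within each list.

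The 5 largest losses among shared proximal regions included 4 transcription factor genes. Irx5, a homeobox gene of the face, covered 12662 bp at e13.5 and 5696 bp at e15.5, at chr8:92353665-92366326. Cyp26b1, which degrades retinoic acid, covered 13084 bp and 6486 bp, at chr6:84576353-84589436. Gata3 had 8308 bp and 2665 bp, Nr2f1, an orphan nuclear receptor of neural crest, 7661 bp and 2118 bp, and Glis2 7790 bp and 2604 bp.

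Among shared distal regions, the largest gains included App (3766 bp and 9411 bp), Actn4 (2071 bp and 6431 bp) and Smg6 (1976 bp and 6091 bp). The others lay near Socs3 (1540 bp and 5830 bp) and 114544 bp from Klf14 (3082 bp and 7310 bp). The largest loss lay in Zfp521, a zinc finger gene of progenitor cells, with 9504 bp at e13.5 and 1185 bp at e15.5. Capzb had 7588 bp and 1452 bp, and Hspg2, which encodes the matrix protein perlecan, 6598 bp and 556 bp. Pax7, a gene of the neural crest in the nose, had 7379 bp and 2162 bp, and Il17rd, an inhibitor of FGF signalling, 7540 bp and 2495 bp. The region near Pax7 lay 5929 bp from the start site at chr4:139819700-139827078.

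Promoter peaks were next compared gene by gene. Of 21911 protein-coding gene symbols, 9797 had a promoter peak at both stages, 1574 at e13.5 alone, 317 at e15.5 alone and 10223 at neither. The peak was at least 2-fold wider at e15.5 for 266 genes (2.72%) and at least 2-fold narrower for 432 (4.41%). It was wider by any amount for 4876 genes (49.8%) and narrower for 4913 (50.1%). For 440 genes (4.49%) the widest peaks of the stages did not overlap, so that their widths belong to different peaks, and this is said of each such gene named below.

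Promoter peaks of cartilage and matrix genes were read against the 49.8% of all genes. Of 13 cartilage genes marked at both stages, 8 were wider at e15.5 and 5 narrower, and 2 passed 2-fold with none narrower by as much. Sox6, the partner of Sox5, had 4705 bp at e13.5 and 10966 bp at e15.5, Col9a3 3033 bp and 6566 bp, and Col11a1 4107 bp and 6317 bp. At Col2a1 the widest peaks, 6841 bp and 11206 bp, did not overlap. Acan and Snorc, genes of cartilage matrix that were named after their values were seen, had a promoter peak at e15.5 only, of 3477 bp and 3711 bp. Of 18 fibroblast and matrix genes marked at both, 13 were wider at e15.5 and 3 passed 2-fold, or 12 of 16 and 2 where the peaks of the stages overlapped. Col6a3 had 3589 bp and 10996 bp, and Col1a1 7526 bp and 21573 bp. At Col1a2, with 3445 bp and 7995 bp, and at Fbln2, with 4108 bp and 2235 bp, the widest peaks did not overlap. The tendon gene Thbs2 had 1887 bp and 4555 bp. Among bone genes outside these, Bmp2 had 3060 bp and 1836 bp, and Alpl, the phosphatase of osteoblasts, had 1950 bp and 3518 bp in peaks that did not overlap.

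Epithelial genes were mixed. Of 16 surface epithelium genes marked at both stages, 10 were wider and 6 narrower at e15.5, with 2 past 2-fold each way. Perp, a desmosome gene, had 2826 bp and 7501 bp, and Klf5, a factor of basal keratinocytes, 1727 bp and 4470 bp. Sfn, the epidermal gene of stratifin, had 5970 bp and 2499 bp, and Epcam 2738 bp and 1360 bp. A promoter peak at e15.5 only was found at Krt5 (4010 bp), a keratin of basal cells, Grhl1 (1730 bp) and Ovol1 (503 bp). As many members, Cdh1 (1133 bp), Krt18 (880 bp) and Ovol2 (1560 bp), had a promoter peak at e13.5 only. The members in these 2 groups were named after their values were seen. Of the glandular and respiratory genes, Elf3 had 1326 bp and 2994 bp, Foxj1, the regulator of motile cilia, 713 bp and 968 bp, Foxa1 1191 bp and 1431 bp, and Ehf 1299 bp and 1197 bp in peaks that did not overlap.

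All 7 AP-1 genes with a promoter peak at both stages had a wider one at e15.5. Junb had 3867 bp and 12268 bp, Fos 1234 bp and 3341 bp, Fosl2 5368 bp and 7696 bp, and Fosb 974 bp and 1307 bp. AP-1 dimers of Fos and Jun proteins bind the letters TGANTCA. Of 12 housekeeping genes, all marked at both stages, 7 were wider at e15.5 and 5 narrower. Actb had 7891 bp and 5983 bp, and Sdha, with 2173 bp and 1267 bp, and Rpl13a, with 3932 bp and 3202 bp, had peaks that did not overlap.

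Frontonasal, olfactory and Wnt genes lay on the narrower side. Of the 9 frontonasal genes, 7 had a narrower promoter peak at e15.5. Msx2 had 11368 bp and 2803 bp, Alx4 13798 bp and 10467 bp, Pax7 7290 bp and 5683 bp, and Pax3 17873 bp and 14152 bp. Msx1 had 13924 bp and 13964 bp. Of 7 olfactory genes marked at both stages, 5 were narrower. Ebf3 had 5970 bp and 232 bp in peaks that did not overlap, Gap43 3403 bp and 897 bp, and Ebf1 4622 bp and 3904 bp. Of 13 Wnt genes marked at both stages, 12 were narrower at e15.5, and the exception, Dkk2, had 4262 bp and 4272 bp. The narrowing was slight at some of them, such as Tcf7l1 with 2985 bp and 2975 bp and Tcf7l2 with 5478 bp and 5271 bp. The median log2 ratio of the 13 was -0.3, and only Lef1 narrowed at least 2-fold. Lef1 had 5595 bp and 2378 bp, Rspo3 3239 bp and 2047 bp, Axin2 6436 bp and 4401 bp, and Sfrp2 4761 bp and 3403 bp.

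Of the genes marked at both stages, the promoter peak was narrower at e15.5 for 11 of 16 facial mesenchyme regulators and 6 of 8 Hedgehog genes, while 9 of 19 BMP and TGF-beta genes and 6 of 12 FGF genes were near the 50.1% of all genes. The narrowing was small, with median log2 ratios of -0.08 for facial mesenchyme regulators and -0.07 for Hedgehog genes. No member of either list narrowed 2-fold. Among 12 early growth genes, 5 had a promoter peak at e13.5 only, beside 1574 of all 21911 gene symbols (7.18%). Mycn, with 5716 bp, was the widest of the 5. The 7.18% is a share of all symbols, of which 10223 had no promoter peak at either stage, against 1 of the 12. A promoter peak at both stages was found at 9797 of the symbols and at 6 of the 12. Igf2bp1, an RNA-binding protein of fetal tissue, had 5300 bp and 2724 bp, and Igf2bp3 7942 bp and 4144 bp. Il17rd had 7472 bp and 1709 bp in peaks that did not overlap. Of the retinoic acid genes, Cyp26b1 had 13084 bp and 6486 bp, while the receptor Rarg had 10860 bp and 18404 bp and Rarb 2560 bp and 3827 bp. Bmp5 had 2135 bp and 4751 bp, and Boc 5688 bp and 9225 bp. Tbx3, a T-box regulator, had 25655 bp and 16227 bp, Meis2 8685 bp and 5135 bp, and Zeb2 10140 bp and 15393 bp.

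**Figure D4:**
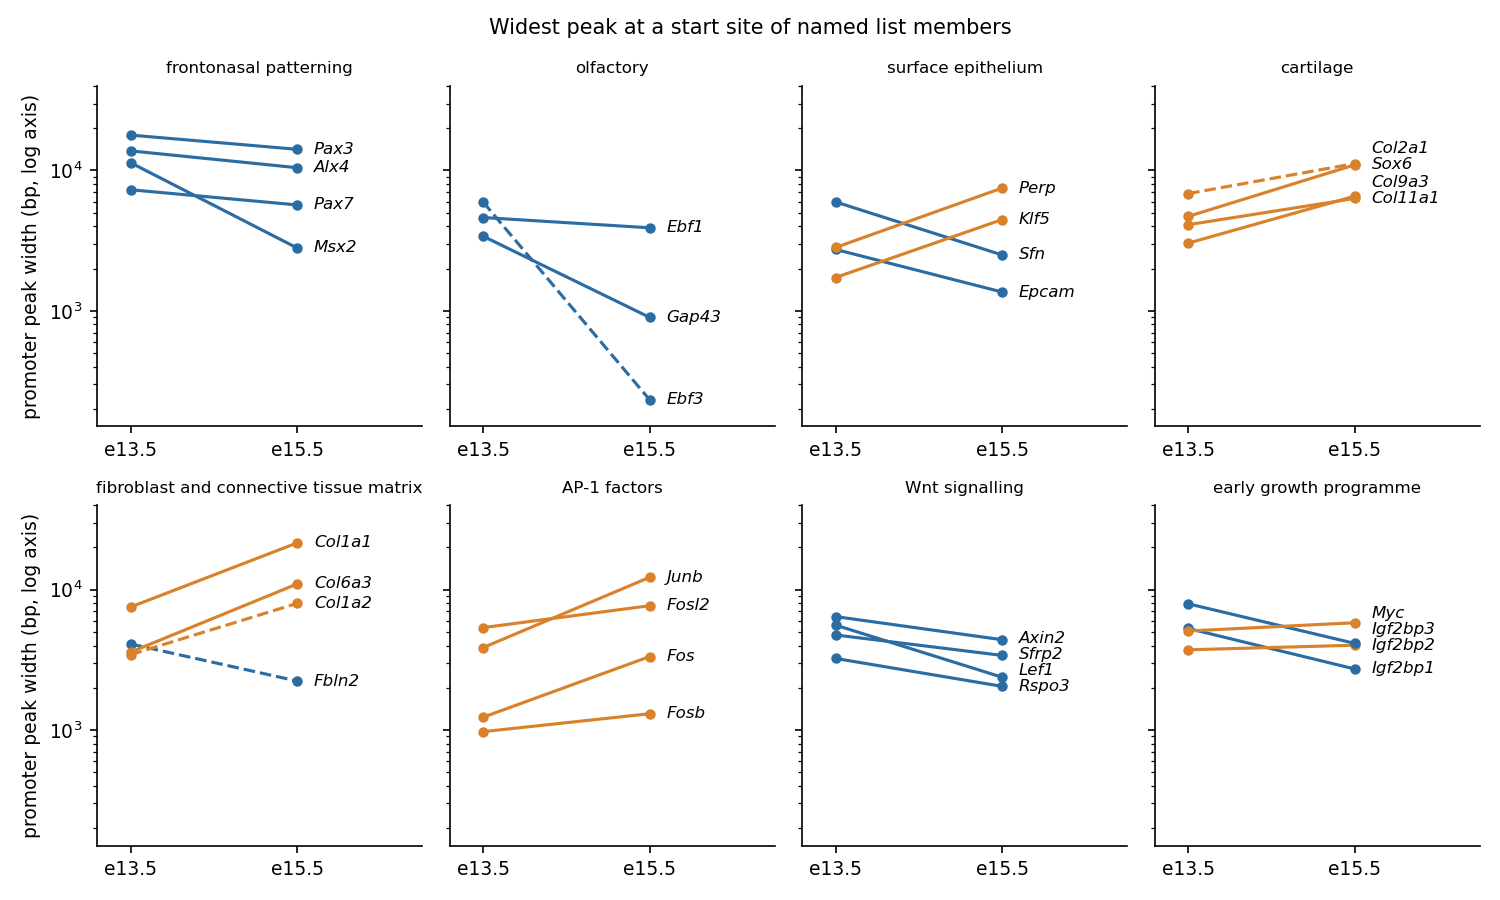
Width of the widest peak within 1 kb of a start site at e13.5 and e15.5, in bp on a log axis, for members of 8 gene lists among the 4 with the largest log2 ratio and a peak at both stages; orange lines are wider at e15.5 and blue lines narrower, and dashed lines join peaks that do not overlap. Cartilage and AP-1 members shown are all wider at e15.5, such as Junb with 3867 bp and 12268 bp, and frontonasal, olfactory and Wnt members shown are all narrower, such as Msx2 with 11368 bp and 2803 bp.

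Consensus sequences were counted in the central 500 bp of distal regions, on both strands, as a share of regions with a match. Over all 15694 distal regions, the AP-1 letters TGANTCA were found in 15.2%. They were found in 18.8% (17.4 to 20.3) of e15.5-only, 15.3% (14.4 to 16.3) of shared and 13.7% (12.9 to 14.5) of e13.5-only regions, and the first interval does not overlap the last. NFI letters were found in 31.7% (30.0 to 33.5) of e15.5-only and 28.3% (27.3 to 29.4) of e13.5-only regions, with 29.2% over all. SNAI/ZEB letters were found in 27% (25.4 to 28.7) and 23.6% (22.6 to 24.6), with 24% over all.

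SOX letters were more common at e13.5, in 18.4% (17.5 to 19.3) of e13.5-only and 14.8% (at most 16.1) of e15.5-only regions, with 16.8% over all. SP/KLF letters were found in 12% (11.3 to 12.8) and 9.6% (8.55 to 10.7), with 13.2% over all, and were most common in shared regions, at 16.7%. For TEAD the shares were 30.3% and 29.5%, for RUNX 12.9% and 13.1%, for GATA 20% and 20.2% and for EBF 15% and 14.9%, each within the intervals of the other. TFAP2 letters were found in 15.4% of e13.5-only and 13.8% of e15.5-only regions, with 15.8% over all. Of the 22 consensus sequences, 9 had a higher share in e15.5-only than in e13.5-only regions. The mean GC content of the windows was 47.7% for e13.5-only, 47.3% for e15.5-only and 48.9% for shared regions. A match is a description of the letters and shows no binding.

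**Figure D5:**
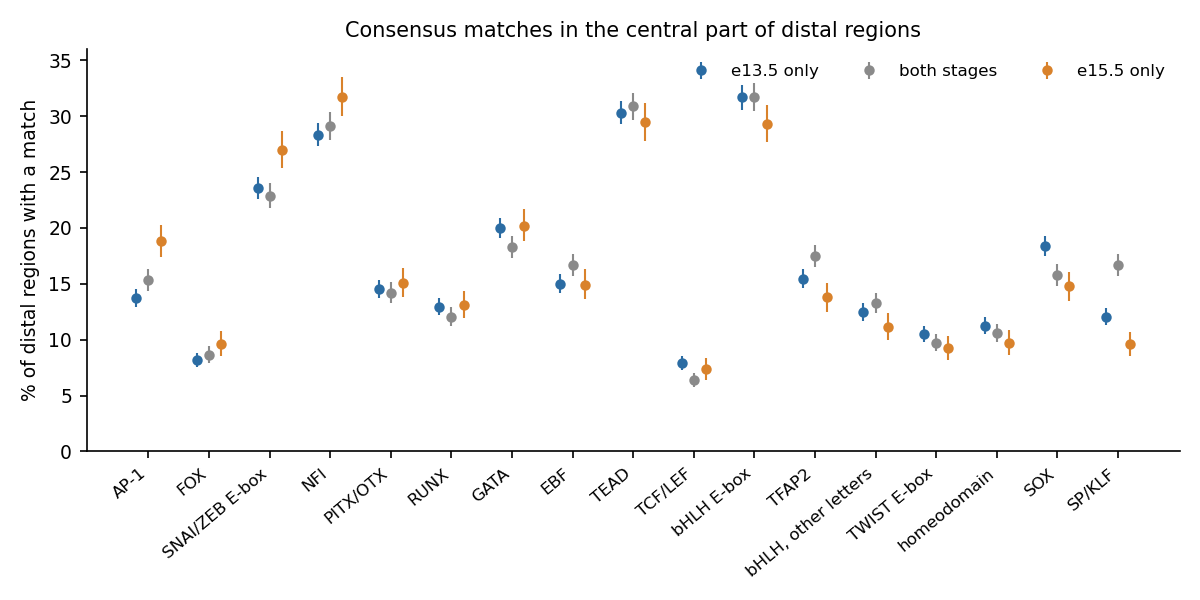
Share of distal regions of each class whose central 500 bp hold a match to each consensus sequence, in percent, with exact 95% intervals, ordered by the ratio of e15.5-only to e13.5-only regions, for consensus sequences found in at least 5% of all distal regions. AP-1 lies at 18.8% in e15.5-only and 13.7% in e13.5-only regions, and SOX at 14.8% and 18.4%.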

How the data were processed

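The authors crosslinked and sonicated freshly dissected wild-type face tissue and precipitated chromatin with an antibody against H3K27ac. MACS2 2.2.4, BWA 0.7.7, SAMtools 0.1.19 and mm10 are named in the submitters' processing notes. For each peak of the broad peak lists the authors deposited a score, a fold enrichment, the −log10 p-value and the −log10 q-value, all set within 1 list. Groups came from labels, except the region of the e15.5 list, taken from its peak names. Peaks on chromosomes other than 1 to 19, X and Y (12 of the 2 lists) and 10 input libraries were not used. Start sites (132629) came from GENCODE vM21 and sequences from RefSeq GRCm38.p6. Merging equalled bedtools 2.31.1 for 29080 regions and was tested on simulated data, where 3000 of 3000 planted classes were recovered. Widths are bases covered. The median's interval rests on order statistics.

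Regions, genes and 28 lists, and 22 consensus sequences, were chosen with earlier results of these data known. Named genes are the 10 with most single-stage distal regions per stage, the 5 widest regions per class, the 5 largest gains and losses in width per kind, up to 4 members per list by difference in distal regions and 4 by promoter log2 ratio, and members of lists used to check the tissue; some of these are not reported here. Printed sequences are the windows with most matches in the 3 distal regions of highest −log10 q per stage, outside chromosome 18. Alternatives were equal numbers of peaks, −log10 q from 2, an overlap of 50%, merging within 1 kb, a promoter window of 2.5 kb, the other e15.5 lists, the widest peak, regions of 1 peak each, a gene window of 10 kb and a motif window of 200 bp. Tools were pandas 2.3.3, numpy 2.4.6, matplotlib 3.10.9 and scipy 1.17.1 in Python 3.11.15.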

Additional observations from a re-analysis of the deposited data

How the results depend on the processing

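Merging peaks up to 1 kb apart, an overlap of 50% of the shorter peak, a promoter window of 2.5 kb, the widest peak alone and regions of 1 peak of each list kept every count within 1.5 times and both median widths within their intervals. With peaks kept at a −log10 q from 2, distal regions numbered 4770 (e13.5 only), 1135 (e15.5 only) and 3161 (both), proximal e15.5-only regions 391, and regions at least 2-fold wider 106 distal and 144 proximal, with 150 distal ones at least 2-fold narrower. Fewer peaks enter each class there by construction. With equal numbers of peaks, e13.5-only regions numbered 3503 distal and 1666 proximal, and the shares of distal regions with a peak in either nasal plate were 60.1% (e13.5 only) and 15.3% (e15.5 only), and in the list labelled maxillary process 13.8% and 25%. With the short e15.5 list labelled nose, distal regions numbered 12112, 1607 and 1053, proximal ones 7997 (e13.5 only), 154 (e15.5 only) and 4695 (both), median log2 width ratios were -0.2768 proximal and -0.5428 distal, regions at least 2-fold wider numbered 13 proximal and 12 distal, and proximal ones at least 2-fold narrower 635. The list labelled maxillary process was tried after seeing the data. It gave a proximal median log2 ratio of -0.0076 and 491 proximal regions at least 2-fold narrower, and in equal numbers of peaks 3001 distal e13.5-only, 2877 distal shared and 1116 proximal e15.5-only regions. Of the single gene lists and consensus sequences, 13 moved and 35 did not with equal numbers, 7 and 14 with a 10 kb gene window, and 6 and 16 with a 200 bp motif window, where ETS (0.547), CRE (0.766) and RUNX (0.968) changed to the lower ratio of e15.5-only to e13.5-only shares and TEAD (1.02) and TCF/LEF (1.03) to the higher. The cause of these changes was not tested. No paired analysis was possible because each stage had 1 library, and depth, which is unknown, limits which peaks could be called.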

Other observations

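Among distal regions, 1713 were called at e13.5 but not in the nose-named e15.5 list and had a peak in both nasal plates of e11.5, and 493 were called in the nose-named e15.5 list, in the e15.5 list labelled maxillary process and in no earlier list. These sets were chosen after the values were seen. The genes with the most regions of the former set were Bach2 and Tenm4 with 6 each and Smyd3 and Tead1 with 5 each. In the latter set Frmd4a, Rbfox2 and Zmiz1 had 3 each, and C1qtnf3 and Cavin1 had 2 each. The strongest regions of the latter set lay near Cavin1, Ago2 and Dlgap1, and another, 739 bp wide at chr10:97376141-97376879, lay 102730 bp from Dcn, which encodes the matrix proteoglycan decorin.

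AP-1 letters (TGANTCA) were found in 13% (interval 11.4 to 14.6) of the former and 22.1% (18.5 to 26.0) of the latter set. NFI letters (TTGGCA) were found in 22.8% (20.9 to 24.9) and 34.7% (30.5 to 39.1), SOX letters (AACAAAG) in 22.4% (20.4 to 24.4) and 11.6% (8.88 to 14.7), and homeodomain letters (TAATTA) in 12.4% (10.9 to 14) and 7.3% (5.17 to 9.97). A further 2545 distal regions were called at both stages and in both nasal plates, among which Dnm3 had the most, with 11. Smad7, an inhibitor of BMP and TGF-beta signalling, had 7, and Boc and Ror2, a Wnt receptor, had 6 each.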
